A study of Mus musculus with 6 samples.

Results

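The RNAs described here are the well-expressed non-coding RNAs of the newborn mouse ovary, 108 genes of the 8413 marked as non-coding in the authors' count table, which lists 27098 genes in all. The members were chosen by their level, a mean of at least 10 CPM (the count scaled to a library total of 1000000) over the 6 libraries of the series. The rule used the mean over both groups and not their difference, so the levels below are a description and the differences between groups are not. The members nearest the limit were Kantr at 10.1 CPM, Gm38863 at 10.1 CPM and 4933427D06Rik at 10.1 CPM. The genes just under it were A630072M18Rik at 9.86 CPM, LOC118568796 at 9.79 CPM and Snhg20 at 9.79 CPM. The label was checked against RefSeq, in which 106 of the 108 were found and all 106 were long non-coding RNAs. GENCODE, in which 87 were found, lists AU015836, Ccdc201, Snhg11, 1500011B03Rik and Kantr as protein-coding.

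Ovaries from mice 3 days after birth were cultured in DMEM/F12 medium with antibiotics, and both groups had the same medium. The PRP group had platelet-rich plasma at 2% in that medium for 2 h and comprised 3 libraries, and the control group had the medium alone and comprised 3 libraries, numbered 1 to 3 in each. Platelet-rich plasma is a fraction of blood plasma with concentrated platelets and their growth factors, and the series text gives it as human and activated with thrombin. The labels name no group with thrombin or with another plasma, no strain and no pooling of animals, and they do not say whether libraries of a group came from separate cultures, so p-values here measure the scatter among these 6 libraries alone, and that scatter may be technical.

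Long non-coding RNAs are transcribed and spliced like messenger RNAs but act as RNA, or through small RNAs cut from them. Host genes of small nucleolar RNAs (snoRNAs) carry in their introns the guides for chemical modification of ribosomal RNA, while their spliced exons are exported and degraded on ribosomes. Other members silence chromosomes or imprinted neighbours in the nucleus (Xist, Kcnq1ot1), lie in nuclear bodies (Malat1) or build them (Neat1). Still others bind proteins or microRNAs in the cytoplasm (Norad, Oip5os1), or are cut into microRNAs (Mir17hg, Mir100hg). In the newborn ovary, which holds small follicles of oocytes and pregranulosa cells within a stroma, antisense RNAs lie beside the genes of gonadal regulators such as Foxl2 and Wt1. Each library was made from whole tissue, so that fewer cells of a type and less RNA per cell cannot be told apart.

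Library totals were 36037111 to 36568367 counts in PRP and 35568000 to 35825931 counts in control. The members took 0.694%, 0.743% and 0.677% of the counts of PRP 1, 2 and 3, against 0.719%, 0.734% and 0.698% in control 1, 2 and 3, so the groups overlapped. The markers of ovarian cells were present in every library, with Ddx4, an oocyte helicase, at 80.8 to 89.2 CPM and Foxl2, a granulosa transcription factor, at 162 to 198 CPM. Summed over 5 oocyte markers, the level was 1110, 776 and 957 CPM in PRP 1, 2 and 3 and 991, 726 and 844 CPM in control 1, 2 and 3, higher in PRP for each number. The single markers did not all share this. Zp3 (521, 246 and 404 CPM in PRP, 417, 214 and 350 CPM in control), Gdf9 and Figla were higher for each number. Ddx4 was lower in PRP for numbers 1 and 2 (87.9 and 80.8 against 89.1 and 81.8 CPM), and Nobox for number 1 (263 against 271 CPM). Red blood cell markers summed to 211, 94.9 and 157 CPM in PRP and to 98.9, 130.0 and 1151 CPM in control, so control 3 stood apart in blood content. The part of either in the results below was not tested.

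A few sequences show what some of these RNAs carry. Oip5os1, also called Cyrano, holds a site for the microRNA miR-7 that is known in mouse for triggering the destruction of that microRNA. The mature miR-7a-5p of RefSeq is printed with its seed, bases 2 to 8, in capitals. Below it stands the site in the 8300-base GENCODE transcript of Oip5os1 at chr2:119602137-119602161, plus strand of GRCm38, with the complement of the seed in capitals. Beyond the seed, 14 of the remaining 15 bases of the microRNA pair with the site, across a bulge of 2 bases. The RefSeq span of the gene, chr2:119594296-119600746, ends before the site.
miR-7a-5p: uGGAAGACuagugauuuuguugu
Oip5os1 site: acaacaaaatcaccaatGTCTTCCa

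Transcripts that start in a run of pyrimidines are known to be translated according to growth signals, and snoRNA host genes are known for such starts. The lines give 50 bases around annotated RefSeq starts (20 before the start and 30 from it, GRCm38.p6), with the longest matching run in capitals. The run searched for was a C followed by at least 4 further C or T bases, on the transcribed strand, beginning within 15 bases of a start. Gas5 is shown at chr1:161035146-161035195 on the plus strand, Snhg12 at chr4:132308658-132308707 on the plus strand and 2410006H16Rik at chr11:62602857-62602906 on the plus strand. Snhg8 is shown at chr3:123508307-123508356 on the minus strand, and Zfas1, which has no such run, at chr2:167062914-167062963 on the plus strand. Gas5 has another annotated start at position 161034601, the beginning of its RefSeq span, around which no such run was found. Oip5os1, which hosts no annotated snoRNA, is shown at chr2:119594276-119594325 on the plus strand.
Gas5: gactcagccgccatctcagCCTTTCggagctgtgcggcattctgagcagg
Snhg12: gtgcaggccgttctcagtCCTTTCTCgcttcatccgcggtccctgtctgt
2410006H16Rik: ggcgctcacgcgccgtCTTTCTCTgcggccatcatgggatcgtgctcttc
Snhg8: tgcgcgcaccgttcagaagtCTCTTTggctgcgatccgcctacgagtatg
Zfas1: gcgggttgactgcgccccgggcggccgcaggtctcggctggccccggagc
Oip5os1: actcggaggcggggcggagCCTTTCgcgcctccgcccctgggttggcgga
At 1 or more of a gene's annotated starts, such a run was found in 10 of 14 snoRNA host members with a RefSeq promoter (71.4%), in 49 of 88 members with one (55.7%) and in 12124 of 27025 genes of the RefSeq table (44.9%). The match describes these letters only.

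Of the members, 9 hold annotated microRNA hairpins within their span. The mature sequences below, from RefSeq, are those of hosts described further on, again with the seed in capitals. The miR-322-5p and miR-503-5p of C430049B03Rik share 6 of the 7 seed bases, AGCAGC. The others shown have a seed of their own among the microRNAs of these hosts.
miR-92a-3p (Mir17hg): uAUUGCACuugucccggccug
miR-100-5p (Mir100hg): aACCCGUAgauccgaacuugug
miR-125b-5p (Mir100hg): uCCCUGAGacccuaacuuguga
miR-322-5p (C430049B03Rik): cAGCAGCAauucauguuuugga
miR-503-5p (C430049B03Rik): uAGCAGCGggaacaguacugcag

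By counts, the members were dominated by a few RNAs. Xist, H19 and Meg3 together held 38.5% to 41.2% of the members' counts in each library, 13 members averaged 100 CPM or more, and 53 averaged under 20 CPM. Levels of different genes can only be set side by side per length, so the CPM values were divided by kilobases of GENCODE exon for the 87 members with a GENCODE model, whose exons summed to 383 to 93092 bases with a median of 3315. H19, an imprinted RNA expressed from the maternal chromosome, had by far the highest level, at 383 ± 21.2 CPM per kb in PRP and 387 ± 19.7 CPM per kb in control (SD, n = 3 each). Gm15389 followed at 81.0 ± 44.2 CPM per kb in PRP and 101 ± 52.6 CPM per kb in control, with an SD that covers every rank below it in the 10 highest. The next ranks were 2410006H16Rik, a snoRNA host, at 85.6 ± 11.7 CPM per kb in PRP and 73.2 ± 3.41 CPM per kb in control, and AU020206 at 75.5 ± 2.66 CPM per kb in PRP and 77.2 ± 2.12 CPM per kb in control. Xist, which coats and silences 1 X chromosome in female cells, had 71.2 ± 6.14 CPM per kb in PRP and 77.5 ± 4.86 CPM per kb in control. These neighbours in the order do not differ beyond their spread. AU015836, Malat1, Ccdc201, Gm35533 and Norad completed the 10 highest, with means over the 6 libraries of 63.7, 56.5, 53.9, 52.8 and 52.6 CPM per kb. The SDs of the last 4 of them overlapped in PRP. In control, Malat1 (57.8 ± 2.39 CPM per kb) lay above Norad (51.3 ± 3.47 CPM per kb) without overlap of the SDs. Kcnq1ot1, an unspliced RNA that silences imprinted neighbours on its own chromosome, had the lowest level at 0.153 CPM per kb. Exon lengths were joined over all GENCODE transcripts of a gene, so the order depends on the transcript models. Among snoRNA hosts, 2410006H16Rik had 462 bases in 5 blocks, Zfas1 2929 in 1 block and Gas5 3760 in 3 blocks. Which transcripts the reads came from was not tested.

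**Figure D1:**
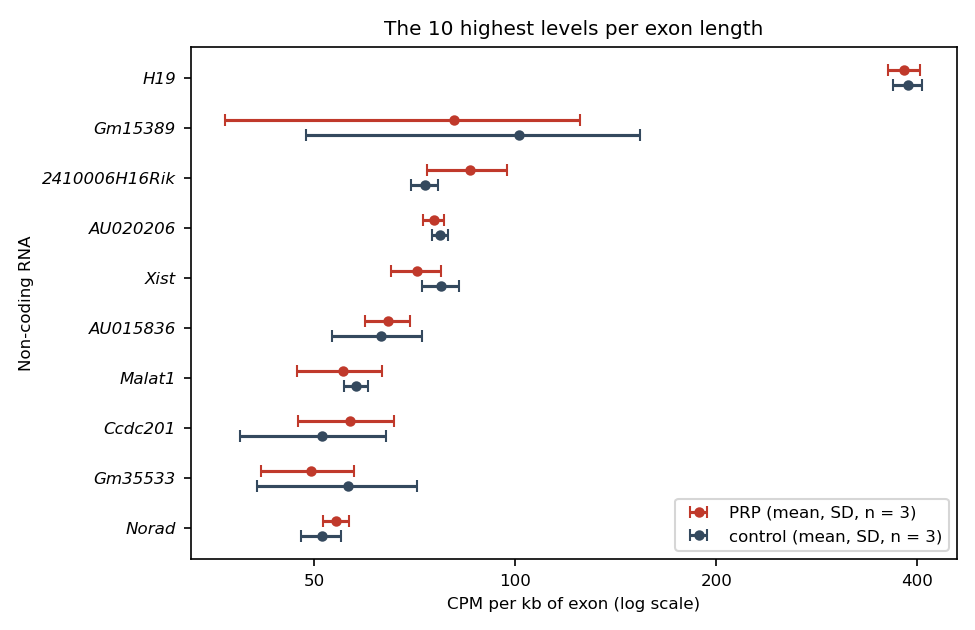
Level per exon length (CPM per kb of GENCODE exon, log scale) of the 10 well-expressed non-coding RNAs with the highest means, for PRP (red, upper point of each pair) and control (dark, lower point), with the mean and SD over 3 libraries each. H19 stands apart near 383 and 387 CPM per kb, and the SDs of the groups overlap for all 10 RNAs.

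The comparison of PRP with control asks which of these RNAs differ after the treatment. Levels within a gene are given from here on as CPM on library sizes scaled by trimmed mean of M values (TMM), and differences as log2 fold changes, PRP minus control. Most members stayed close to equal in both groups. The unpaired edgeR quasi-likelihood test, adjusted over all 17475 genes tested, called 0 of the 108 members at 0.05, and it called 0 of all 17475 genes (0.0%). At an unadjusted p under 0.05 it marked 6 members, 1 higher and 5 lower, against 557 of all genes (3.19%), and DESeq2 and limma-voom marked 7 members each and called none. The libraries of the same number deviated together, and with that number as a block, a pairing taken from the data and not from the labels, 21 of all genes passed (0.12%). Among them was 1 member, Oip5os1, lower in PRP. With the block, 9 members were higher and 7 lower at an unadjusted p under 0.05, against 1960 of all genes in either direction (11.2%), a share of the members close to that background.

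The median log2 fold change was -0.005 over the members and 0.001 over all genes tested. Of the members, 50 lay above 0 and 58 below, where 50.4% of all genes lay above 0. Differences were within 0.1 for 50 members and over 0.3 in size for 6, and they ran from -0.53 for A630034I12Rik to 0.77 for Gm30198. The libraries of PRP lay all above those of control for 5 members (4.34% of all genes) and all below them for 8 (4.87% of all genes). Within the pairs of the same number, PRP was higher in all 3 pairs for 20 members (16.8% of all genes) and lower in all 3 for 16 (16.3% of all genes).

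**Figure D2:**
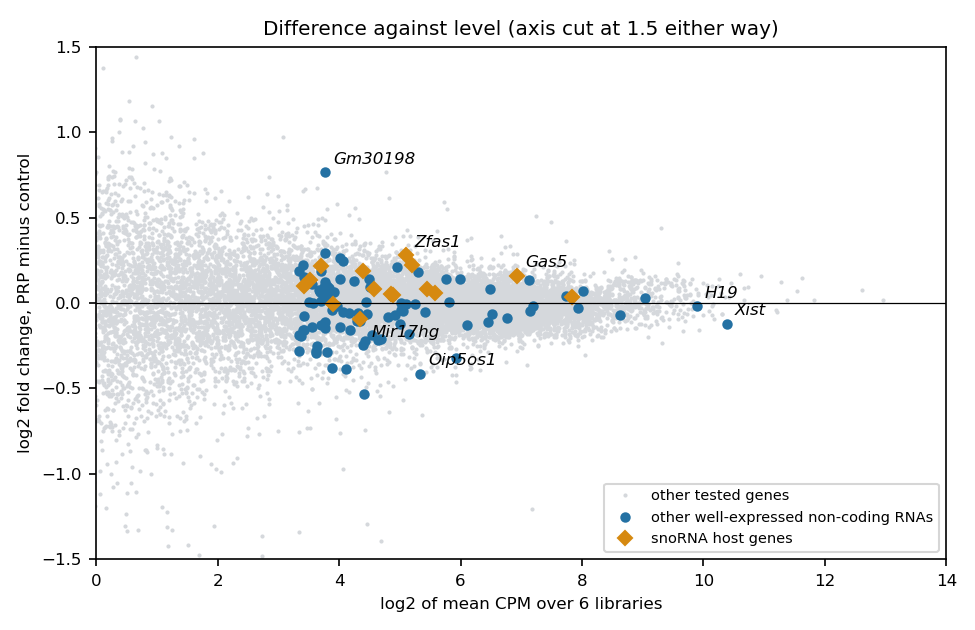
Log2 fold change, PRP minus control, against the log2 of the mean CPM for the well-expressed non-coding RNAs (blue points, with snoRNA host genes as orange diamonds) over the other tested genes (grey; the vertical axis covers -1.5 to 1.5). The members spread around 0 within the cloud of other genes, 13 of 15 snoRNA hosts lie above 0, and Oip5os1 lies at -0.41.

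Among RNAs that act in the cytoplasm, Oip5os1 was lower in PRP. It had 32.2, 34.2 and 37.2 CPM in PRP 1, 2 and 3, against 42.7, 44.4 and 51.0 CPM in control 1, 2 and 3. Every PRP library was below every control library, and the differences in the 3 pairs were alike, at -0.40, -0.38 and -0.46 on the log2 scale. The unpaired estimate was -0.41 ± 0.10 (SE), with an edgeR unadjusted p of 0.0021 and an adjusted p of 0.9998. With the replicate block it was -0.41 ± 0.07 (SE; 95% interval -0.56 to -0.26), with an adjusted p of 0.0331. That call rests on all 3 pairs: without pair 1, 2 or 3 the blocked adjusted p was 0.178, 0.215 or 0.128. It was also lost with the blocked fits of limma-voom (adjusted p = 0.0669) and of edgeR without robust estimation (adjusted p = 0.114), while the estimate was between -0.47 and -0.33 in every alternative run, with -0.33 ± 0.10 (SE) without control 3. Its coding neighbour Oip5 had 13.3, 16.3 and 12.2 CPM in PRP and 14.4, 16.7 and 15.5 CPM in control, a log2 difference of -0.15 ± 0.14 (SE). Those groups overlapped, and the RefSeq span of Oip5os1 overlaps no other gene of the table.

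The other 3 members on the list of cytoplasmic RNAs were not called in either fit. Norad, which sequesters Pumilio proteins, had 259, 257 and 278.5 CPM in PRP and 269, 234 and 253 CPM in control, with a log2 difference of 0.07 ± 0.07 (SE). The sites that those proteins bind were searched as TGTANATA on the transcribed strand, N being any base. The GENCODE transcript of Norad holds 11 of them in 4915 bases, or 2.24 per kb, second by number among the members only to the 18 of Kcnq1ot1 in 93092 bases. The motif was found in 26 of 87 members (29.9%) and in 10.96% of the 18209 long non-coding genes of GENCODE, whose lengths differ. Tug1, a widely expressed RNA named for its response to taurine in retina, had 142, 131 and 142 CPM in PRP and 145, 137 and 146 CPM in control. PRP was lower in each pair of Tug1, by -0.04, -0.05 and -0.05 on the log2 scale, and the groups overlapped.

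**Figure D3:**
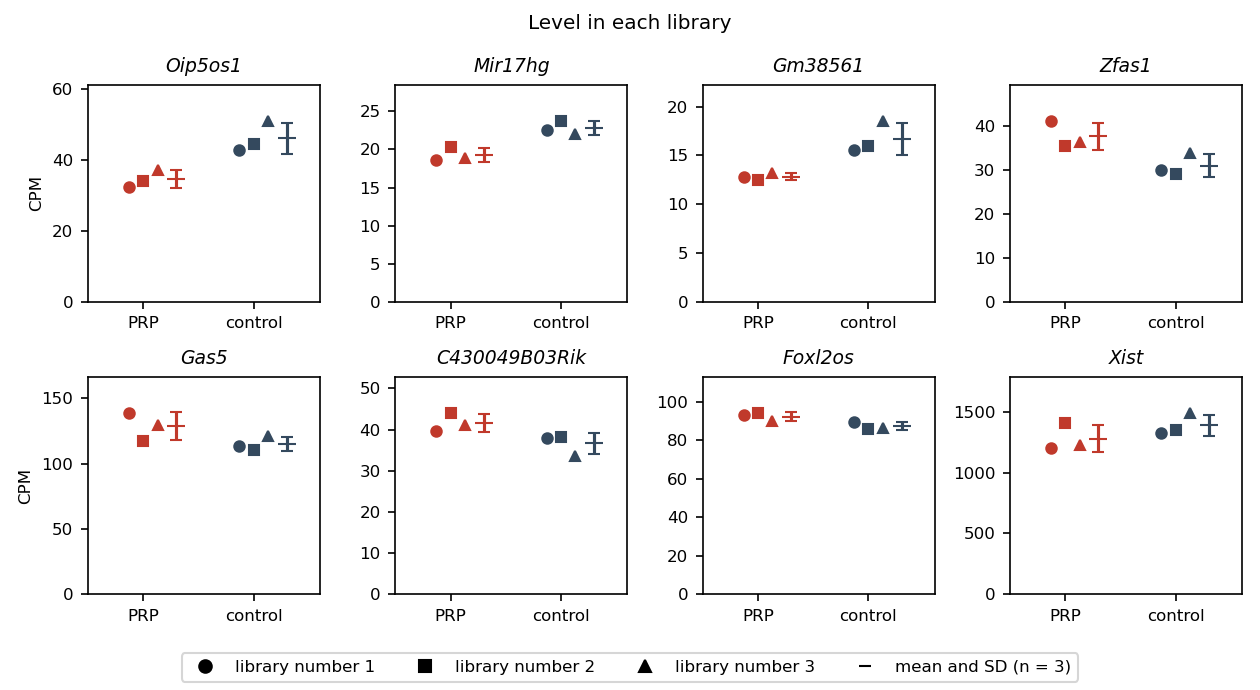
CPM in each library for 8 members, with PRP left of control in each panel, symbols for the library number, and the mean and SD over 3 libraries beside the points. Oip5os1, Mir17hg and Gm38561 have every PRP library below every control library, Zfas1, C430049B03Rik and Foxl2os every PRP library above, and the groups overlap for Gas5 and Xist.

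The snoRNA host genes lay slightly higher in PRP, though none was called. Of the 15 members on this list, 13 had a log2 fold change above 0 and 2 below, where 50.4% of all tested genes lay above 0, and the median was 0.083. In the pairs 1, 2 and 3 the median difference was 0.16, 0.09 and 0.05. PRP was higher in all 3 pairs for 7 of the 15 and lower in all 3 for 0. Including the list's genes under the level limit, 20 of 24 tested lay above 0, with a median of 0.093. Leaving out 1 library moved the median between 0.058 and 0.155, with 0.144 without control 3, the library with the most blood RNA.

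Zfas1, which hosts Snord12 and lies opposite the start of Znfx1, had the largest difference of the hosts, with 41.2, 35.3 and 36.4 CPM in PRP and 29.97, 29.0 and 34.0 CPM in control. All PRP libraries were above all control libraries, by 0.28 ± 0.10 on the log2 scale (SE), with an edgeR unadjusted p of 0.0209 and an adjusted p of 0.9998. With the block the adjusted p was 0.197. The overlapping Znfx1, a coding gene, had 82.5, 87.3 and 82.2 CPM in PRP and 90.8, 86.1 and 98.3 CPM in control, a log2 difference of -0.13 ± 0.07 (SE) in the opposite direction.

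Gas5, whose RNA accumulates in growth-arrested cells, had 139, 118 and 129 CPM in PRP and 114, 110.4 and 121 CPM in control. The groups overlapped through PRP 2 and control 3, while PRP was higher in each pair. Its log2 difference was 0.16 ± 0.08 (SE), with a blocked adjusted p of 0.269, and 0.10 without PRP 1. The span of Gas5 overlaps that of Zbtb37, which had a log2 difference of -0.14 ± 0.07 (SE). The small host 2410006H16Rik, with Snord49a, Snord49b and Snord65, had 42.8, 33.3 and 42.6 CPM in PRP and 33.6, 32.4 and 35.5 CPM in control. PRP 1 and PRP 3 were above every control library and PRP 2 was not, with a log2 difference of 0.23 ± 0.11 (SE) and a blocked adjusted p of 0.294. Snhg16 had 15.8, 13.4 and 12.8 CPM in PRP and 11.3, 12.1 and 12.7 CPM in control, which did not overlap by a narrow margin, with a log2 difference of 0.22 ± 0.13 (SE). The remaining hosts had log2 differences from -0.09 for Snhg8 to 0.19 for Snhg12.

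**Figure D4:**
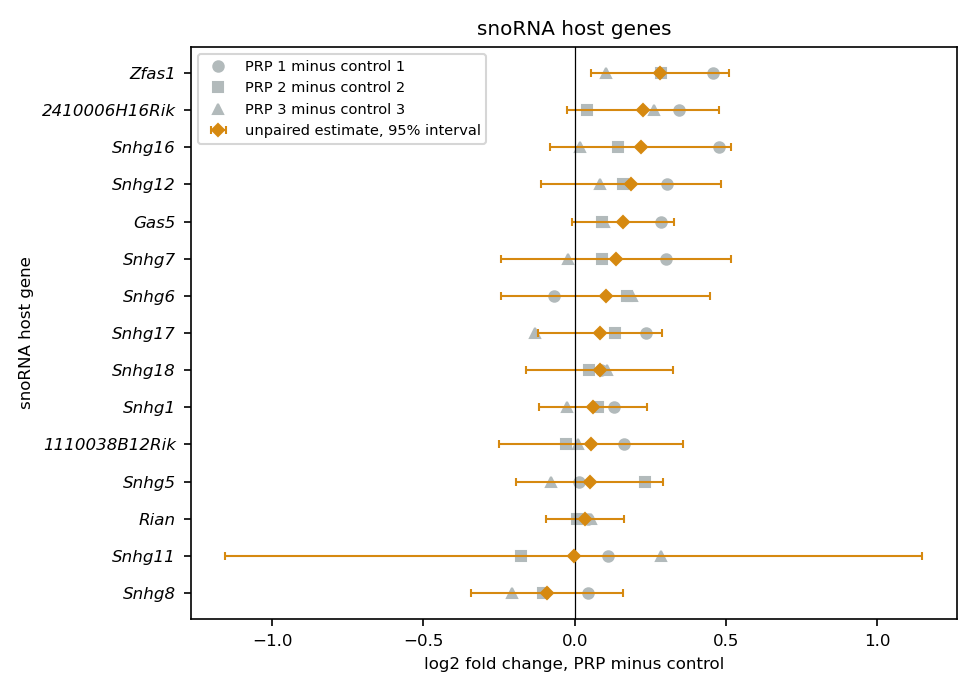
Log2 fold change, PRP minus control, of the 15 snoRNA host genes among the members: orange diamonds with 95% intervals for the unpaired edgeR estimate and grey symbols for the difference within each pair of the same number. The estimates run from -0.09 for Snhg8 to 0.28 for Zfas1, the interval of Zfas1 alone excludes 0, and that of Snhg11 is wide.

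The proteins that bind snoRNAs and the enzymes that degrade spliced non-coding RNAs did not pass either fit. Of 13 genes for snoRNA-binding proteins, 6 lay above 0 and 7 below, with a median of -0.001. Dkc1, the pseudouridine synthase, had 68.6, 79.4 and 65.1 CPM in PRP and 77.8, 81.3 and 75.9 CPM in control, with a log2 difference of -0.14 ± 0.08 (SE). Naf1, an assembly factor of the same particles, had a log2 difference of -0.15 ± 0.12 (SE). Of 21 tested genes for RNA decay, 9 lay above 0 and 12 below, with a median of -0.029. Smg1, the kinase of nonsense-mediated decay, had 289, 335 and 319 CPM in PRP and 333, 359.8 and 371 CPM in control. PRP 2 lay just above control 1 and the other PRP libraries below all of control, with a log2 difference of -0.17 ± 0.07 (SE) and a blocked adjusted p of 0.153.

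Of the 7 members on the list of microRNA hosts, 2 lay above 0 and 5 below, with a median of -0.064, and none was called. Of all genes tested, 50.4% lay above 0. The other members with hairpins, C430049B03Rik and Rian, were not on this list and lay above 0, at 0.18 and 0.03. Mir17hg, host of a cluster that includes miR-92a and is known for promoting proliferation, had 18.6, 20.3 and 18.8 CPM in PRP and 22.6, 23.8 and 22.0 CPM in control. Every PRP library was below every control library, by -0.25 ± 0.10 on the log2 scale (SE), with an edgeR unadjusted p of 0.0366 and adjusted p of 0.9998, or 0.323 with the block. Its RefSeq span at chr14:115044390-115046728 contains 1 hairpin, that of miR-92a. Mir100hg, host of miR-100 and miR-125b, had 148, 143 and 147 CPM in PRP and 132, 124 and 143 CPM in control. Here the groups overlapped by 1 library each, with a log2 difference of 0.13 ± 0.07 (SE) and a blocked adjusted p of 0.327, and 0.09 without control 2.

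C430049B03Rik, the X-linked host of miR-322 and miR-503, was not on that list but holds both hairpins. It had 39.7, 44.0 and 41.1 CPM in PRP and 37.9, 38.3 and 33.7 CPM in control. All PRP libraries were above all control libraries, by 0.18 ± 0.09 on the log2 scale (SE), with a blocked adjusted p of 0.355. Dnm3os, host of miR-199a and miR-214 in an intron of Dnm3, had 87.0, 70.1 and 95.6 CPM in PRP and 100.5, 80.6 and 91.5 CPM in control, which overlapped. Mir22hg had 12.8, 16.97 and 21.6 CPM in PRP and 14.7, 18.8 and 24.0 CPM in control. For Mir22hg the library number held 92.9% of the sum of squares of log2 CPM, and PRP was below control in each pair, with a log2 difference of -0.16 ± 0.23 (SE). The count of a host transcript is not a level of its mature microRNAs, which these libraries do not measure.

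Xist had 1203, 1405 and 1227 CPM in PRP and 1327, 1354 and 1490 CPM in control. PRP 2 was above 2 of the control libraries, so the groups overlapped, and the log2 difference was -0.12 ± 0.07 (SE), with an edgeR adjusted p of 0.9998, or 0.447 with the block. Firre, which anchors the inactive X chromosome near the nucleolus, had 138, 156.5 and 143 CPM in PRP and 133, 156.2 and 154 CPM in control, with a log2 difference of -0.02 ± 0.08 (SE). Of 13 genes for proteins that work with Xist, 3 lay above 0 and 10 below. Their median was -0.073 on the log2 scale, and none was called. Rbm15, which recruits the RNA methylation complex to Xist, had 22.4, 23.7 and 21.2 CPM in PRP and 29.0, 28.8 and 28.9 CPM in control. These groups were well separated, with a log2 difference of -0.36 ± 0.09 (SE) and an adjusted p of 0.9998, or 0.137 with the block. Spen, the silencing factor that binds Xist, had a log2 difference of -0.18 ± 0.08 (SE), with a blocked adjusted p of 0.202.

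The RNAs of nuclear bodies overlapped between groups. Malat1, found in splicing speckles, had 330, 442 and 383 CPM in PRP and 385, 414 and 413 CPM in control, a log2 difference of -0.07 ± 0.10 (SE). Neat1, the scaffold of paraspeckles, had 107, 111 and 97.8 CPM in PRP and 97.0, 113 and 126 CPM in control, a log2 difference of -0.09 ± 0.10 (SE). Over the 8 members on the list of nuclear RNAs, 4 lay above 0 and 4 below, with a median of 0.008. Of 12 genes for paraspeckle proteins, 3 lay above 0 and 9 below, with a median of -0.017 and no call. Tardbp had 387, 393.5 and 380.3 CPM in PRP and 417, 408 and 396 CPM in control, which did not overlap, with a log2 difference of -0.07 ± 0.05 (SE).

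Chaserr, which in mouse restrains the neighbouring chromatin remodeller gene Chd2, had 36.8, 31.1 and 31.2 CPM in PRP and 32.1, 24.4 and 29.1 CPM in control. PRP was higher in each pair and the groups overlapped, with a log2 difference of 0.21 ± 0.12 (SE) and a blocked adjusted p of 0.332. It was 0.13 without PRP 1 and 0.11 without control 2. Chd2, whose span overlaps that of Chaserr, had a log2 difference of -0.06 ± 0.06 (SE), with 151, 149 and 147 CPM in PRP and 165, 145 and 157 CPM in control. In GENCODE the exons of Chaserr overlap Chd2 on the same strand, so the genes may share reads, which was not tested.

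The 6 imprinted members had 3 estimates above 0 and 3 below, with a median of 0.008, and none differed at an unadjusted p under 0.05 in either fit. H19 had 881, 974.5 and 967 CPM in PRP and 922, 1008 and 925 CPM in control, with a log2 difference of -0.02 ± 0.06 (SE; 95% interval -0.16 to 0.13). Its imprinted neighbour Igf2, a fetal growth factor expressed from the paternal chromosome, had a log2 difference of -0.01 ± 0.06 (SE). Meg3, Rian and Mirg are transcribed from the same maternal domain on chromosome 12. Meg3 had 570.0, 509 and 518 CPM in PRP and 526, 523 and 512 CPM in control, a log2 difference of 0.03 ± 0.06 (SE; 95% interval -0.10 to 0.17). Rian, which hosts a snoRNA cluster, had 239, 223 and 231 CPM in PRP and 232, 222 and 223 CPM in control, with the smallest ratio of highest to lowest library of all members, at 1.08. These levels lay within a narrow range in both groups. Dlk1, the paternally expressed gene of that domain, had 565, 397 and 500 CPM in PRP and 479, 386 and 466 CPM in control, higher in PRP in each pair, by 0.14 ± 0.14 (SE) on the log2 scale.

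Of 16 tested imprinted coding genes, 11 lay above 0 and 5 below, with a median of 0.058 and no call. Ube3a, a ubiquitin ligase gene, had 150.5, 161 and 159 CPM in PRP and 189, 182 and 168 CPM in control, without overlap, and its log2 difference was -0.19 ± 0.06 (SE; blocked adjusted p = 0.176). Slc22a18 did not overlap either, at 0.549, 0.552 and 0.692 CPM in PRP and 0.195, 0.334 and 0.0568 CPM in control, a level at which few reads decide the value.

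The 2 members on the list of antisense RNAs beside gonadal regulators, Foxl2os and Wt1os, had small differences in the direction of their coding partners. Neither was called. Foxl2os, beside the granulosa cell regulator Foxl2, had 93.0, 94.2 and 89.9 CPM in PRP and 89.6, 85.8 and 86.2 CPM in control. The groups did not overlap, with a log2 difference of 0.08 ± 0.06 (SE) and a blocked adjusted p of 0.601. Foxl2 had 197, 179 and 183 CPM in PRP and 198, 166 and 162 CPM in control, a log2 difference of 0.09 ± 0.08 (SE). In GENCODE the exons of Foxl2os overlap those of Foxl2 on the opposite strand. With the strand setting unknown, the RNA and its partner may share reads, which was not tested. Wt1os had 29.2, 23.0 and 18.4 CPM in PRP and 26.5, 20.6 and 16.98 CPM in control, higher in PRP in each pair, by 0.14, 0.16 and 0.12 on the log2 scale. The groups overlapped because libraries of number 1 were high and those of number 3 low in both. Wt1, a transcription factor gene of the gonadal stroma and pregranulosa cells, had a log2 difference of 0.10 ± 0.10 (SE).

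Of 4 members on a list of RNAs known for responding to damage or p53 (Gas5, Neat1, Mir22hg and Tug1), only Gas5 lay above 0, and the median was -0.067. No member came from the list of structural small RNAs, such as the RNA of the signal recognition particle, of which 1 of 21 listed symbols was in the table.

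Several members named only by a clone or predicted-gene symbol had every PRP library below every control library. Gm38561, on the X chromosome at chrX:163958741-163983833 in GRCm38.p6, had 12.8, 12.5 and 13.2 CPM in PRP and 15.6, 15.97 and 18.6 CPM in control. The difference was -0.38 ± 0.12 on the log2 scale (SE), with an edgeR unadjusted p of 0.0116 and an adjusted p of 0.9998, or 0.200 with the block. Gm42127, at chr5:99967904-99976527, had 12.8, 12.6 and 12.1 CPM in PRP and 16.3, 14.7 and 14.8 CPM in control, a log2 difference of -0.29 ± 0.12 (SE; blocked adjusted p = 0.344). The spans of both overlap a coding gene: Car5b, with a log2 difference of 0.002 ± 0.33 (SE), and Hnrnpd, with 0.03 ± 0.06 (SE). 1600020E01Rik, at chr6:86527330-86564449, varied least within groups, with 11.09, 10.96 and 10.97 CPM in PRP and 13.7, 13.7 and 13.002 CPM in control. For it the treatment held 97.0% of the sum of squares, and the log2 difference was -0.29 ± 0.12 (SE; blocked adjusted p = 0.366). Its PRP counts, 404, 397 and 396, lay closer together than sampling of reads alone would usually give, which raises that share. In GENCODE its exons overlap the coding gene Pcbp1 on the opposite strand.

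Gt(ROSA)26Sor, the transcript of the locus used for transgene insertion, had 11.9, 11.6 and 10.4 CPM in PRP and 13.8, 14.1 and 12.5 CPM in control. It did not overlap between groups, with a log2 difference of -0.25 ± 0.13 (SE), while the overlapping coding gene Thumpd3 had 0.03 ± 0.08 (SE). E430024I08Rik and 4933431E20Rik were the other members without overlap and lower, with log2 differences of -0.19 ± 0.10 and -0.14 ± 0.12 (SE). Gm38863 had 10.3, 9.25 and 7.76 CPM in PRP and 12.8, 10.7 and 9.62 CPM in control, lower in each pair but with overlapping groups. Its log2 difference of -0.28 ± 0.17 (SE) was -0.17 without PRP 3 and -0.16 without control 1. 2700054A10Rik had 65.1, 81.9 and 50.8 CPM in PRP and 77.9, 85.0 and 53.4 CPM in control. The number of the library ordered both groups of 2700054A10Rik alike, and its unpaired log2 difference of -0.13 ± 0.23 (SE) turned to 0.03 without PRP 3 and to 0.01 without control 2.

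Higher in PRP without overlap, besides Zfas1, Snhg16, C430049B03Rik and Foxl2os, was 9330151L19Rik, with 14.9, 13.6 and 12.9 CPM in PRP and 11.7, 12.1 and 12.7 CPM in control. Gm13375 had 12.4, 19.04 and 13.5 CPM in PRP and 11.2, 16.5 and 9.06 CPM in control, higher in each pair. 6720468P15Rik had 18.4, 20.5 and 14.2 CPM in PRP and 18.6, 15.2 and 10.3 CPM in control, higher in pairs 2 and 3. Their groups overlapped, with log2 differences of 0.29 ± 0.24 and 0.26 ± 0.22 (SE) and blocked adjusted p-values of 0.355 and 0.371. Single libraries decided these sizes. The unpaired value of Gm13375 was 0.08 without PRP 2, 0.12 without control 3 and 0.57 without control 2. That of 6720468P15Rik was 0.15 without PRP 2, 0.06 without control 3, 0.40 without PRP 3 and 0.47 without control 1.

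Gm30198 had the largest log2 difference of the members above 0, 0.77 ± 0.34 (SE), but 1 pair did not share it. It had 15.2, 14.5 and 21.6 CPM in PRP and 15.6, 6.30 and 8.23 CPM in control, so that pair 1 differed by -0.04 on the log2 scale and pairs 2 and 3 by 1.19 and 1.38. The unpaired value was 1.23 without control 1. The blocked adjusted p was 0.536 with all pairs and 0.0154 without pair 1. Gm30198 lies at chr12:102447328-102467876 and overlaps no other gene of the table.

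Most of the variation among the members followed the library number rather than the treatment. For the median member, the number held 62.3% of the sum of squares of log2 CPM and the treatment 11.1%, against 55.7% and 11.3% over all genes tested. The number held more than 50% in 74 members and the treatment in 14. The number has more levels than the treatment and so takes a larger share from scatter alone. The shares of number and treatment are therefore not like for like. The labels do not say what the number stands for. The ratio of the highest to the lowest of the 6 libraries had a median of 1.40, was under 1.5 in 65 members and was over 2 in 13. Its median was 1.37 over all genes tested and 1.23 over coding genes of at least 10 CPM. The library in which a member was highest was PRP 1 for 26 members, PRP 2 for 25 and PRP 3 for 4, and control 1 for 13, control 2 for 21 and control 3 for 19.

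Gm52213 spanned the widest range, 21.5-fold, with 17.9, 24.7 and 2.46 CPM in PRP and 18.7, 38.5 and 1.79 CPM in control. The low libraries were those of number 3 in both groups, with 89 counts in PRP 3 and 63 in control 3, and the number held 98.2% of its sum of squares. Gm34699 ran the other way between numbers 1 and 2, with 36.1, 12.01 and 21.2 CPM in PRP and 48.2, 8.86 and 23.5 CPM in control. Gm15389 had 34.7, 87.8 and 39.3 CPM in PRP and 61.0, 105 and 36.0 CPM in control, and Snhg11, an RNA best known from neurons, had 12.4, 21.9 and 10.3 CPM in PRP and 11.5, 24.7 and 8.46 CPM in control. Both were highest in the libraries of number 2. For these 4 RNAs the groups overlapped almost fully, with log2 differences of -0.39 ± 1.29, -0.22 ± 0.73, -0.32 ± 0.56 and -0.003 ± 0.47 (SE) in the order named.

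**Figure D5:**
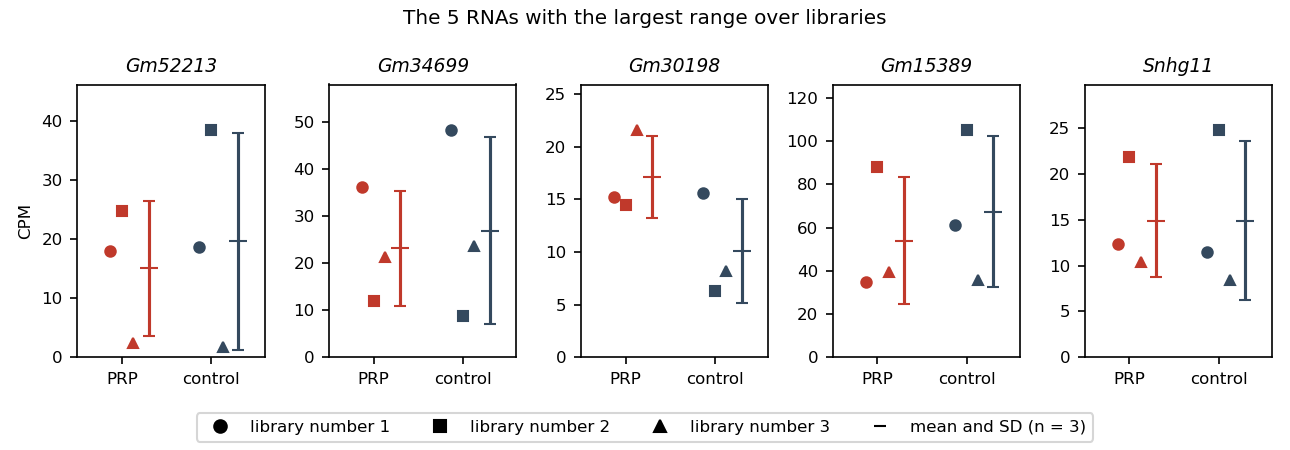
CPM in each library for the 5 members with the largest ratio of highest to lowest library, with PRP left of control in each panel, symbols for the library number, and the mean and SD over 3 libraries beside the points. In Gm52213, Gm34699, Gm15389 and Snhg11 the same number is highest or lowest in both groups, and in Gm30198 PRP 3 is the highest library and control 2 the lowest.

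Many of the members lie close to other genes, which matters because the strand setting of the counting is not given in the sources used here. The RefSeq spans of 39 of 106 members overlap another gene of the table, a coding one in 36 cases, and in GENCODE the exons of 23 of 87 overlap a coding gene on the opposite strand. For members with such exons, Zfas1 among them, reads of the partner may be counted with their own if strand was ignored. In GENCODE the exons of 7 members overlap another gene on the same strand, among them Chaserr with Chd2 and Mir22hg with Tlcd2. There, reads may be shared whatever the strand setting. Gm38561 and Gm42127 overlap a coding gene by span but have no GENCODE model. Whether their exons overlap it is therefore not known. Rps18-ps4 is named as a pseudogene of the ribosomal protein gene Rps18, but GENCODE gives it as a long non-coding RNA of 3 exon blocks. Its exons overlap the coding gene Gm10260 on the opposite strand. Whether it shares reads with Gm10260 or Rps18 is uncertain. The members lie on each autosome and the X chromosome, with 14 on chromosome 2, 9 each on chromosomes 6, 11 and 12, and 6 on the X chromosome.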

How the data were processed

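The data are raw counts per gene, 1 table deposited by the authors with Entrez identifiers. Per the labels' protocols, RNA was column-purified and libraries were made with a SMARTER mRNA kit. The submitters' processing notes name GRCm38 and mm10 as build. The aligner, counter, annotation and strand setting were not given in the sources. The column of PRP 3 has 2 letters of its title swapped and was taken as PRP 3, since all other titles have their own column.

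PRP was set against control with edgeR 4.0.16 (R 4.3.3), using a robust quasi-likelihood F test on 17475 genes kept by filterByExpr, TMM library sizes, and two-sided p-values with Benjamini-Hochberg adjustment over all genes at 0.05. Standard errors were derived from the estimate and its F statistic. Totals were 35568000 to 36568367 counts per library. DESeq2 1.42.0, limma-voom (limma 3.58.1), other scaling and filters and leaving out libraries were alternatives. Same-numbered libraries deviated together from their group means (r of 0.24, 0.40 and 0.33, against -0.28 to -0.02 for other pairs), so the number was taken to pair libraries, from the data and not from a label. The fit with this replicate block is given where it bears on a call. No 2 libraries of a group were duplicates (Poisson chi-square per degree of freedom between 13.03 and 29.4), and the fits were tested on simulated counts.

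Members were matched to RefSeq (GRCm38.p6) by Entrez identifier and to GENCODE M21 by Entrez identifier (24), RefSeq transcript (39) or symbol (24). The members, role lists and rules were chosen with earlier results of these data known. Named were the 10 highest per kb, up to 8 members per direction with the smallest blocked p and 5 with the smallest unpaired p, list members, the 5 widest ranges, the members nearest the limit, and 2 genes per partner list, of which some results are not reported. Members without overlap were named after their values were seen, as were coding neighbours.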

Additional observations from a re-analysis of the deposited data

How the results depend on the processing

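The count of members past the threshold was 0 without a block under every other scaling, filter and tool and without each library. With the replicate block it was 1 (Oip5os1), without replicate 1 in that fit it was 1 (Gm30198, not Oip5os1), and without replicate 2 or 3 it was 0. The median of the snoRNA hosts was 0.145 without PRP 2, 0.155 without PRP 3 and 0.144 without control 3, and leaving out each library in turn gave 0.058 to 0.155. The median over members stayed between -0.030 and 0.025, with -0.008 and -0.016 at limits of 5 and 20 CPM, and was -0.002 for members whose span overlaps no other gene, an alternative chosen after seeing the data. 2700054A10Rik turned to 0.028 without PRP 3 and 0.008 without control 2, within -0.31 to 0.03 over the 6. For 17 members with the lowest p-values, 302 of 306 estimates kept their direction and side of the threshold. All 20 group means of the 10 highest members per kb moved by less than 1 SD with unscaled totals. Each group has 3 libraries and members down to 63 counts in a library, which limits what could be called.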
